A study of Mus musculus with 8 samples.

Results

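RNA recovered with the ODD set of probes against Lhx1os was compared with RNA recovered with control probes against LacZ. The comparison used 4 of the 8 libraries of the study, 2 with ODD probes and 2 with LacZ probes, and each ODD library was set against the LacZ library of the same replicate number. All libraries came from mouse motor neurons made from HBG3 embryonic stem cells, a reporter line in which the promoter of HB9, a motor neuron gene, drives green fluorescent protein (HB9::GFP). After dissociation the cells grew for 3 days on polyornithine and laminin in N2B27 medium with ascorbic acid, BDNF, CNTF, GDNF and a kinase inhibitor. The probes for Lhx1os were biotinylated antisense oligonucleotides of 20 nt, divided into the ODD and EVEN sets, and LacZ, a bacterial mRNA, was the target of the control set. Input libraries were made alongside. Replicates 1 and 2 were separate pull-down experiments, carried as batches in the labels, and the labels do not say whether they began from separate differentiations. With 2 libraries a group, p-values measure only the spread between libraries of a group. In edgeR's test on all 8 libraries that spread was estimated with EVEN and Input included and without a term for the replicate.

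In such a pull-down, probes pair with a target RNA, streptavidin retrieves the biotin, and RNAs held near the target can come along with it. Control probes measure what sticks without the target. Lhx1os is a long noncoding RNA transcribed away from Lhx1, which encodes a LIM-homeodomain transcription factor of spinal motor neurons and interneurons.

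Total counts were 7632775 and 11149143 in the LacZ libraries and 12563449 and 10276552 in the ODD libraries. The motor neuron markers (Mnx1, Isl1, Isl2, Lhx3, Lhx4, Chat, Slc18a3, Slc5a7 and Prph) were tested for 9 of 9 genes, and their summed level was 307 to 714 CPM (counts scaled by library size) in ODD and 310 to 684 CPM in LacZ. The markers of progenitors and glia, tested for 10 of 11 genes, summed to 1823 to 2869 CPM in ODD and 1669 to 2829 CPM in LacZ. The 6 pluripotency markers summed to 3.94 to 8.54 CPM in ODD and 5.41 to 11.8 CPM in LacZ. Among them Dppa5a, Pou5f1 and Zfp42 had no counts in either group. Esrrb, the only one tested, had a mean of 5.77 CPM in ODD and 8.18 CPM in LacZ. In bulk RNA, fewer cells of a type and less RNA per cell cannot be told apart.

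Lhx1os (ENSMUSG00000087211) occupies positions 84525660 to 84535831 of chromosome 11, plus strand, in GRCm38. It had 16 and 28 counts in the LacZ libraries and 2239 and 371 in the ODD libraries. Both ODD libraries were far above both LacZ libraries, and ODD replicate 1 was far above ODD replicate 2. After scaling for library size, the ratio of ODD to LacZ was 87.3 in replicate 1, with an exact 95% interval of 53.7 to 153, and 14.6 in replicate 2, with an interval of 9.96 to 22.3. These intervals cover counting error only and leave out the spread between libraries. Reads without molecular identifiers may not be independent molecules, so the intervals may be too narrow even for counting error. The fitted log2 fold change was 5.57 (SE 1.15) in edgeR's quasi-likelihood test, with a Benjamini-Hochberg adjusted p of 1 over the 16524 genes tested. When edgeR was fitted to the ODD and LacZ libraries alone, with the replicate as a block, its adjusted p was 0.0218. The Wald test of DESeq2 on all libraries gave 2.94e-07. Lhx1 starts 125 bp from Lhx1os on the other strand, and had 188 and 281 counts in LacZ and 283 and 269 in ODD. Its log2 fold change was -0.00 (SE 0.16), and its groups overlapped.

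Within 500 kb of the start of Lhx1os, 12 of 18 other genes were tested, Lhx1 among them. Their median log2 fold change was -0.01, beside 0.01 over all genes tested. No adjusted p in edgeR fell under the threshold for any of the 12, as for every gene tested. None of the 12 reached an unadjusted p under 0.05. Over all genes tested 0.569% were higher and 0.46% lower at that level, so 0 of 12 does not set these genes apart. Aatf, whose product binds RNA polymerase II, starts 12138 bp away and had 309 and 476 counts in LacZ and 533 and 487 in ODD.

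No gene passed the adjusted threshold of 0.05 in edgeR's quasi-likelihood test on all 8 libraries, either higher or lower in ODD (0% of the genes tested in each direction). For every gene named below by a log2 fold change and its SE, the adjusted p in this test was 1 when rounded. At an unadjusted p under 0.05 the same test had 94 genes higher (0.569%) and 76 lower (0.46%). With limma on log2(FPKM + 1), 59 of 16524 genes were higher and 134 lower at an unadjusted p under 0.05. There too, 0 genes passed the adjusted threshold in either direction. DESeq2 called Lhx1os alone, or 0.00355% of 28192 genes, and none lower. The block on the ODD and LacZ libraries alone, which was added once results were known, called 3 genes higher (0.0188%) and 1 lower (0.00628%). Without the filter on low counts, edgeR called 60 genes higher (0.213%) and 15 lower (0.0532%) of 28192. All 60 were at least 2-fold higher in replicate 1, and 4 of them were in replicate 2. The genes higher in the blocked fit were Lhx1os, Gpx1 and Rtca, and the gene lower there was the processed pseudogene Gm5540.

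The replicates were then read one by one. On the log2(CPM + 1) scale, 4 of the 16524 genes (0.0242%) were at least 2-fold higher in ODD in both replicates, namely Lhx1os, Gpx1, Erp29 and Ccdc12. As many, 4 (0.0242%), were at least 2-fold lower in both. A counting interval wholly above 1 in both replicates was found for 256 genes (1.55%), and one wholly below 1 for 145 (0.878%). With total library size in place of TMM factors the counts were 173 above and 315 below, so the balance of the directions turned with the scaling. This criterion passes small differences in abundant genes: Tubb3, a neuronal tubulin, met it at ratios of 1.06 and 1.07. Both ODD libraries lay above both LacZ libraries for 1363 genes (8.25%), and below both for 1232 (7.46%). These counts were 1249 and 1340 with RLE factors and 1018 and 1614 with total library size, so here too the more frequent direction depended on the scaling.

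Gpx1, the glutathione peroxidase that reduces hydrogen peroxide, had 500 and 621 counts in LacZ and 2590 and 2200 in ODD. The ODD libraries were close to each other and both were well above LacZ. The ratio was 3.23 (95% interval 2.94 to 3.56) in replicate 1 and 3.91 (3.58 to 4.28) in replicate 2. Its log2 fold change was 1.83 (SE 0.68), and with the replicate block on ODD and LacZ alone the adjusted p by edgeR was 0.00265. With the EVEN probes the log2 fold change of Gpx1 over the same LacZ libraries was 3.11 (SE 0.71), from 10255 and 1754 counts.

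Rtca, an RNA 3′-terminal phosphate cyclase, had 339 and 449 counts in LacZ and 1128 and 787 in ODD. Its ratios were 2.08 and 1.94, nearly the same in both experiments, and the groups did not overlap. The log2 fold change was 1.01 (SE 0.45), with an adjusted p of 0.0218 in the blocked fit of ODD and LacZ alone. Tsr3, which acts in the modification of ribosomal RNA, behaved as evenly, with 138 and 183 counts in LacZ and 392 and 325 in ODD. Its ratios were 1.77 and 1.96 and its log2 fold change was 0.90 (SE 0.22). Exons of Rtca overlap Gm26530 and those of Tsr3 overlap Baiap3, each on the other strand.

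Erp29, a folding factor of the endoplasmic reticulum, had 592 and 585 counts in LacZ and 16330 and 1305 in ODD. Here replicate 1 led by far, at a ratio of 17.2 (95% interval 15.9 to 18.7) against 2.46 (2.23 to 2.72) in replicate 2. The log2 fold change was 3.50 (SE 1.13). Exons of Erp29 overlap those of Naa25 and Tmem116 on the other strand, and no source used here says whether reads were counted by strand, which leaves the assignment of these reads uncertain. Ccdc12, a coiled-coil protein of the spliceosome, had 184 and 195 counts in LacZ and 1889 and 377 in ODD, with ratios of 6.41 and 2.13. Both genes were above LacZ in both ODD libraries, less so in replicate 2.

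**Figure D1:**
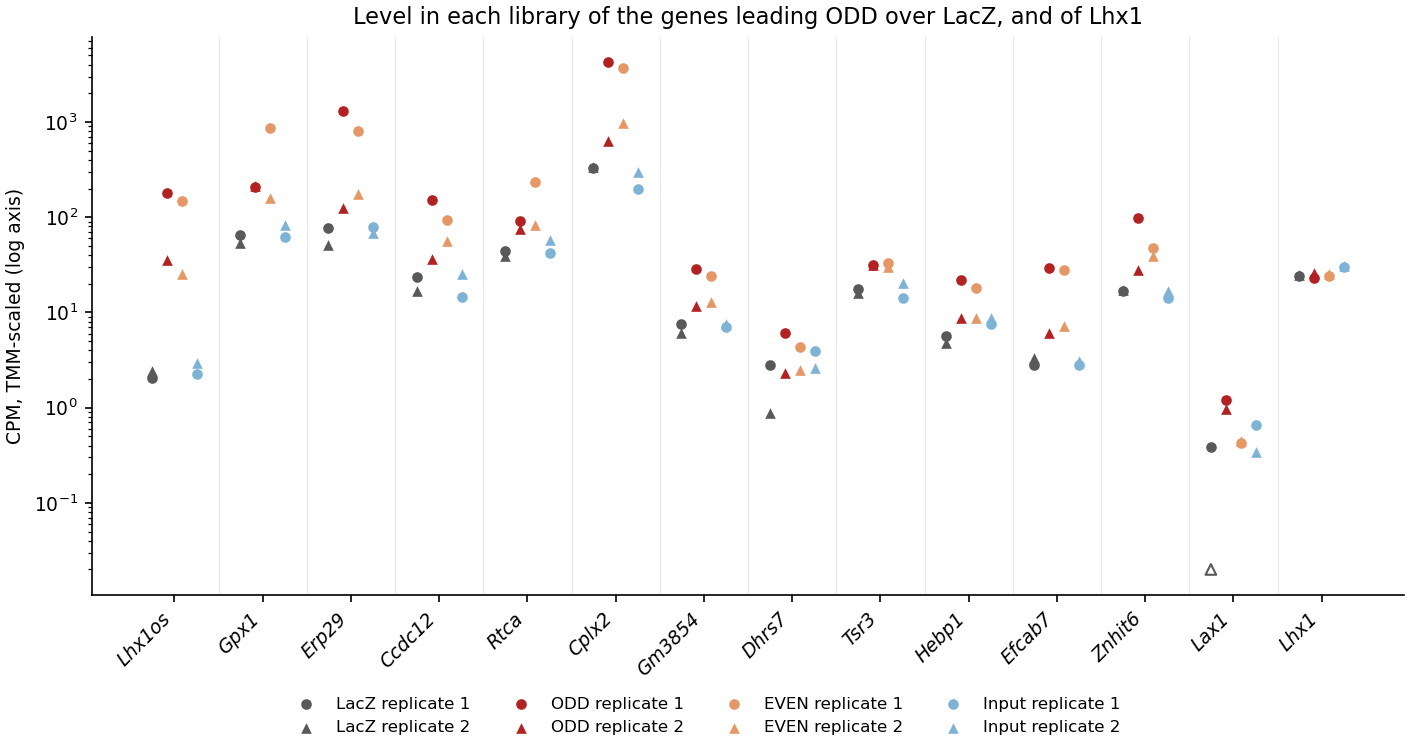
Level in CPM (log axis, scaled by TMM library sizes) of Lhx1os, the 12 other genes with the largest smaller ratio of the replicates, and Lhx1, in each of the 8 libraries, with circles for replicate 1 and triangles for replicate 2. The open triangle of Lax1 stands for 0 counts and has no place on the log axis. Lhx1os, Erp29 and Cplx2 were highest in replicate 1 of ODD, while Gpx1, Rtca and Tsr3 had like levels in both ODD libraries and Lhx1 had like levels in ODD and LacZ.

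The rule of 2-fold in both replicates was just missed by Rtca, whose smaller log2 ratio was 0.94, Cplx2 at 0.89, Gm3854 at 0.84 and Dhrs7 at 0.82, where Ccdc12 just inside had 1.05. Cplx2, a complexin that binds the SNARE complex of synaptic vesicles, had 2554 and 3866 counts in LacZ and 52868 and 6500 in ODD. Its ratios of 12.9 and 1.86 again put most of the difference in replicate 1. Gm48623, a long intergenic noncoding RNA on the same strand of chromosome 13 that ends at 54312797, upstream of the start of Cplx2 at 54371349, was named after its values were seen. It had 29 and 69 counts in LacZ and 769 and 80 in ODD, with ratios of 16.5 and 1.28.

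Further genes with higher levels in both ODD libraries were Efcab7, Znhit6 and Hebp1. Efcab7, an EF-hand protein, had ratios of 10.3 and 1.86. Znhit6, an assembly factor of small nucleolar ribonucleoproteins, had 5.87 and 1.63, and Hebp1, a heme-binding protein, had 3.89 and 1.85. Lax1 was seen at 3 and 0 counts in LacZ and 15 and 10 in ODD, too few for a ratio in replicate 2. Coil, the scaffold of Cajal bodies, had 178 and 349 counts in LacZ and 714 and 393 in ODD. Its log2 fold change was 0.83 (SE 0.25). Spout1, a SPOUT-domain methyltransferase, was at 0.62 (SE 0.18), with exons that overlap Endog on the other strand.

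The experiments differed in how many genes stood out. In replicate 1, 171 genes (1.03%) were at least 2-fold higher in ODD and 67 (0.405%) at least 2-fold lower. In replicate 2 these counts were 7 (0.0424%) and 41 (0.248%). The bulk of the genes spread alike, with the central 90% of log2 ratios between -0.41 and 0.45 in replicate 1 and between -0.37 and 0.34 in replicate 2. At least 8-fold higher were 15 genes in replicate 1 and 1, Lhx1os, in replicate 2.

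The 171 genes, 150 of them protein-coding, held 5.00% of all counts in ODD replicate 1. They held 1.23% in LacZ replicate 1, 1.48% in ODD replicate 2, 1.31% in LacZ replicate 2 and 2.68% in EVEN replicate 1. Their median log2 ratio was 1.47 in the replicate that chose them and 0.12 in replicate 2, where 127 of the 171 were above 0. In replicate 2 the list was thus little above the control as a whole. Of the 4 libraries, ODD replicate 1 had the highest total count and LacZ replicate 1 the lowest, and the part of depth in these counts was not tested.

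Examples of high levels in ODD replicate 1 alone, named after their values were seen, were H2-Ke6, Zfp712 and Tubb4a. H2-Ke6 had 36 and 55 counts in LacZ and 1093 and 54 in ODD, with ratios of 18.9 and 1.08. Its exons overlap Gm20427 on the same strand. Zfp712, a zinc finger protein, had 88 and 105 counts in LacZ and 2074 and 81 in ODD, with ratios of 14.7 and 0.852. Tubb4a, a tubulin, had ratios of 9.3 and 1.06. For each of the 3 genes, ODD replicate 2 was close to LacZ. Rab3c, a small GTPase of synaptic vesicles, and Rad21, a cohesin subunit, were high in replicate 1 and a little above LacZ in replicate 2. Their ratios were 9.59 and 1.55 for Rab3c and 10.5 and 1.38 for Rad21. Without ODD replicate 2, edgeR called 7 genes higher, among them H2-Ke6, Zfp712, Shld2 and Znhit6, and with it 0.

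**Figure D2:**
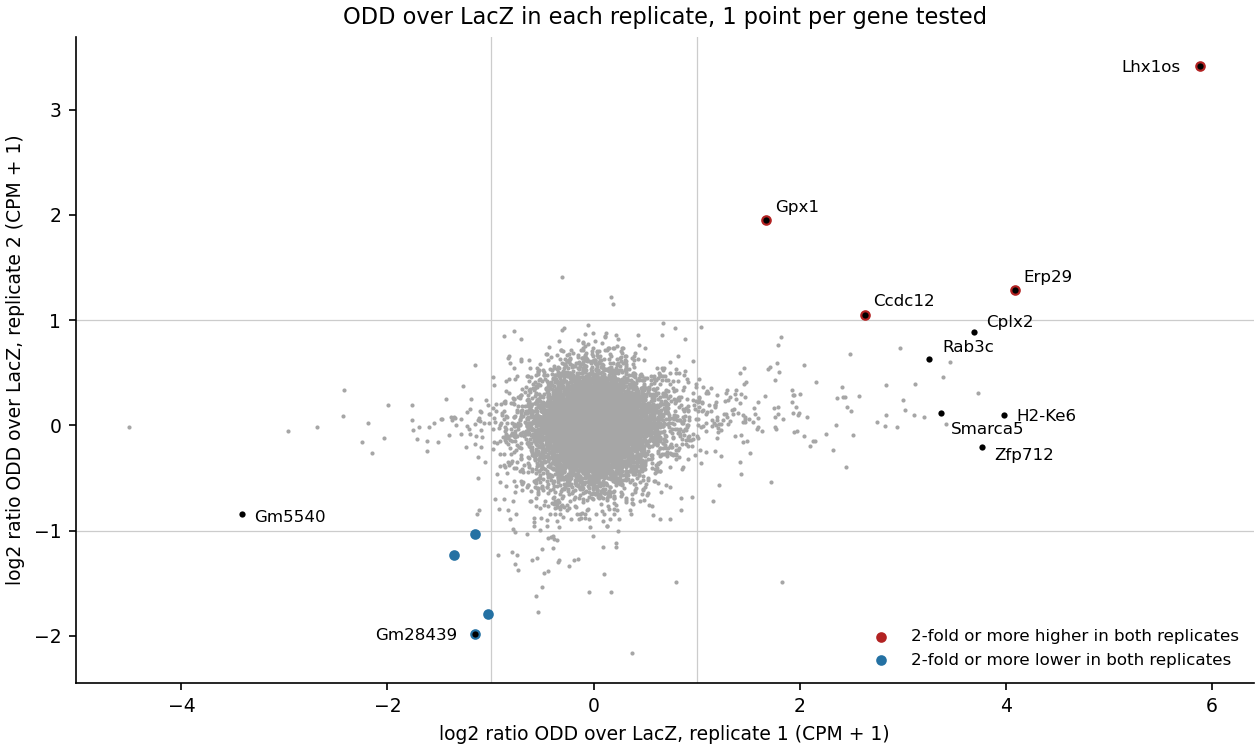
Log2 ratio of ODD to LacZ (CPM + 1) in replicate 1 (horizontal) and replicate 2 (vertical) for the 16524 genes tested, with grey lines at 2-fold. Red points are the 4 genes at least 2-fold higher in both replicates, blue points the 4 at least 2-fold lower in both, and black dots mark named genes. The cloud stretches to the right along the horizontal axis, where 171 genes passed 2-fold in replicate 1 and 7 in replicate 2.

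Sequence shared with Lhx1os was examined next, since a probe to Lhx1os can also pair with an RNA that carries the same letters. The probe sequences were not used here. The longest Lhx1os isoform (ENSMUST00000128121) has 599 nt in 4 exons. Between nt 266 and 355, a 90 nt window with 87 nt in exon 3 (chr11:84535116-84535221, plus strand, GRCm38), its words of 15 nt occurred in up to 930 other genes tested, and outside that window in at most 13. Of 1595 genes that shared a word of 15 nt on the same strand, 1475 (92.5%) shared one there. The window is shown because it carries nearly all of these matches, with capitals on the longest run shared with another tested gene, of 32 nt. The rest of the transcript to its 3′ end is shown for contrast.
Lhx1os nt 266 to 355: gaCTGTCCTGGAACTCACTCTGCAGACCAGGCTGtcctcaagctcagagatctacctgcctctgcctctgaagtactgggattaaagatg
Lhx1os nt 356 to 599: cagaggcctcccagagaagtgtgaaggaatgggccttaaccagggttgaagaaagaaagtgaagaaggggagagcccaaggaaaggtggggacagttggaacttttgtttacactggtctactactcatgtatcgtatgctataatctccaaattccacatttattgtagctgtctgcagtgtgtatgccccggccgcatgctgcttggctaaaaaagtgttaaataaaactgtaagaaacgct

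On the same strand, genes with such a stretch had nearly the same median as all genes and a similar share above LacZ in both replicates. A stretch of 15 nt or more on the same strand was present in 1611 of 16507 genes (9.76%). Their median log2 fold change was 0.01, as over all genes, and 22 (1.37%) had counting intervals above 1 in both replicates. With 20 nt or more, the length of a probe, there were 461 genes (2.79%), with a median of -0.00 and 7 (1.52%) above in both. Over all genes with a transcript sequence that share was 1.54%. At an unadjusted p under 0.05 by edgeR, 5 of the 461 were higher (1.08%, against 0.563%) and 0 lower (0%, against 0.46%). Of the 1611 genes, 10 were higher (0.621%) and 2 lower (0.124%) at that level. The longest shared runs, of 32 nt, were in Ppp2r5c, Kdm5b, Senp5 and Supt5, whose log2 fold changes were 0.00, 0.22, 0.03 and -0.32 with SE 0.18, 0.19, 0.15 and 0.25. On the opposite strand, where a transcript could pair with Lhx1os itself, 1432 genes (8.68%) had 15 nt or more, and their median was 0.00. Of these, 29 (2.03%) had counting intervals above 1 in both replicates, and 12 (2.85%) of the 421 with 20 nt or more, against 1.54% of all genes with a transcript sequence. Intervals below 1 were found for 20 (1.4%) and 7 (1.66%), against 0.878%. Gm43874 had the longest such run, 32 nt, at a log2 fold change of -0.12 (SE 0.44).

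Some genes with more counts in ODD carried part of the capitalised run. Erp29, Shld2 and Smarca5 share an identical 20 nt run with Lhx1os nt 268 to 287, and Gm43311, a TEC locus with 5 and 3 counts in LacZ and 12 and 10 in ODD, shares 19 nt of it. They are shown in sense orientation, in capitals throughout as every base is shared, and were picked after their values were seen.
Erp29: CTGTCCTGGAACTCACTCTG
Shld2: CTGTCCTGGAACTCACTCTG
Smarca5: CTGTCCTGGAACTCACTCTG
Gm43311: TGTCCTGGAACTCACTCTG

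The run lies in a transcript of Erp29 annotated for nonsense-mediated decay, in a coding transcript of Shld2 and in a retained-intron transcript of Smarca5, and all annotated isoforms were searched. Shld2, a subunit of the shieldin complex of DNA repair, had 82 and 117 counts in LacZ and 1236 and 142 in ODD, with ratios of 9.41 and 1.34. Smarca5, the ATPase of ISWI chromatin remodellers, had 2212 and 3120 counts in LacZ and 36726 and 3070 in ODD, with ratios of 10.4 and 1.09. Both stood out in replicate 1 and were near LacZ in replicate 2. The 3 genes were among 14 other genes with a transcript that were at least 8-fold higher in replicate 1 (21.4%), and replicate 1 chose that list. Of the 170 at least 2-fold higher in replicate 1, 7 (4.12%) had 20 nt or more, beside 2.79% of all genes with a transcript sequence. With EVEN probes, over the same LacZ libraries, the log2 fold changes were 2.94 for Erp29, 0.26 for Shld2 and 1.01 for Smarca5, beside 3.50, 2.45 and 2.55 with ODD.

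**Figure D3:**
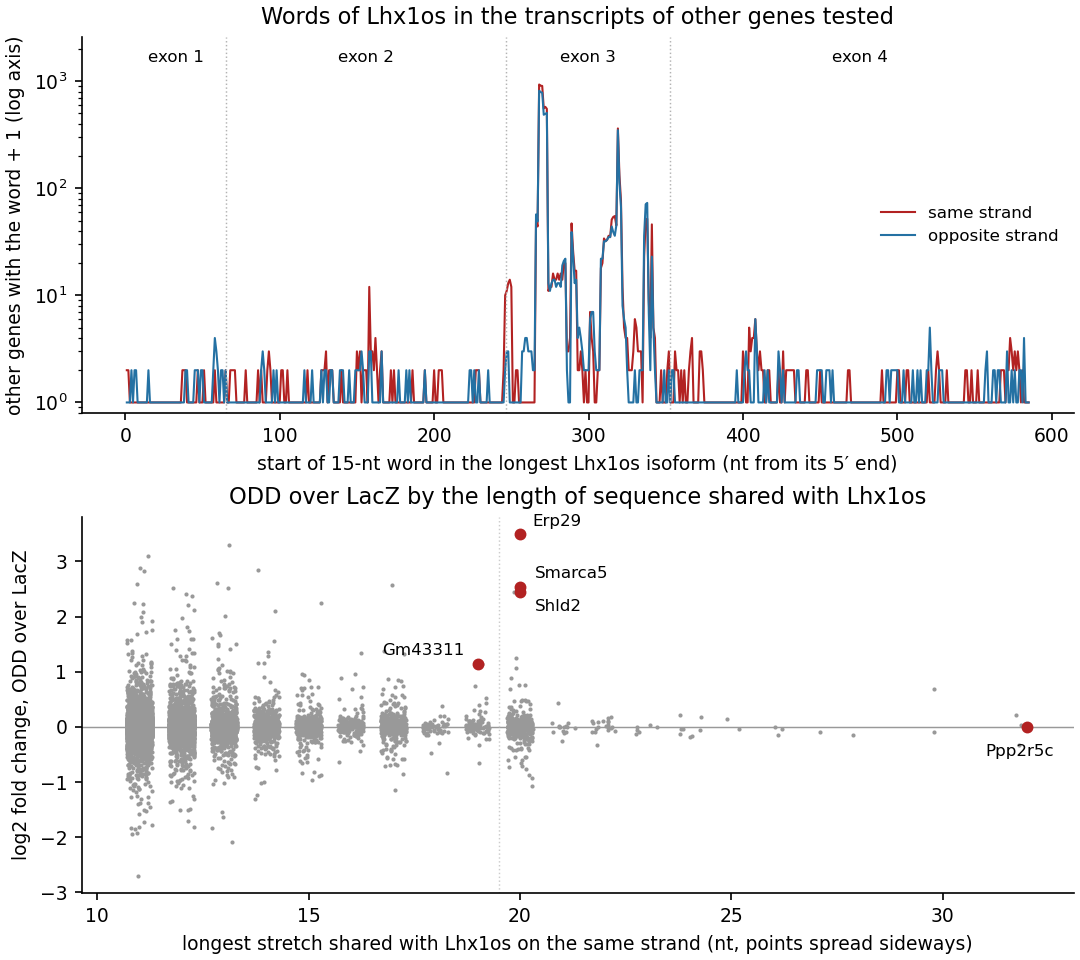
Top, the number of other tested genes (plus 1, log axis) whose transcripts hold each 15 nt word of the longest Lhx1os isoform, by position, on the same strand in red and the opposite strand in blue, with dotted lines at exon borders. Bottom, log2 fold change of ODD over LacZ by the longest stretch shared with Lhx1os on the same strand, 1 point per gene, where genes at 20 nt and above scatter around 0 apart from a few such as Erp29.

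Gene classes were compared next, by the annotation's biotype. Processed pseudogenes, which are copies of mRNAs inserted in the genome, had a lower median in ODD than all genes tested. Of 378 tested, 35 (9.26%) had an unadjusted p under 0.05 and were lower, against 0.46% of all genes, and 1 was higher. Their median log2 fold change was -0.27, beside 0.01 over all genes, and for 122 (32.3%) both ODD libraries lay below both LacZ libraries, against 7.46% of all genes. In edgeR's fit of all 8 libraries none passed the adjusted threshold, while without the low-count filter Gm5540 (adjusted p = 4.81e-06) and Rps23-ps2 (adjusted p = 0.0101) were called lower and Gm13135 (adjusted p = 0.016) higher. The block on ODD and LacZ alone also called Gm5540 lower (adjusted p = 0.038). The 29 tested pseudogenes named for a ribosomal protein had a median of -0.58, and 6 (20.7%) were lower at an unadjusted p under 0.05 and 0 higher. Both medians kept their sign with RLE factors, total library size and the replicate block, all under the same filter on low counts. That filter admits a gene on the libraries of 1 group alone, so pseudogenes of few counts can enter through LacZ. How far this raised the share that was lower was not tested. With the filter of 50 counts in 2 libraries, 30 of 13320 genes of all classes were lower at an unadjusted p under 0.05 by edgeR, and 70 higher. No source used here says how reads shared with parent genes were counted, which makes single pseudogenes uncertain.

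The 4 genes at least 2-fold lower in both replicates were all pseudogenes, Rpl17-ps5, Rpl10a-ps1, Rps23-ps2 and Gm28439. Rps23-ps2 had 17 and 40 counts in LacZ and 7 and 3 in ODD, and its log2 fold change was -2.70 (SE 0.47). Rpl17-ps5 had 28 and 26 counts in LacZ and 10 and 4 in ODD, at -2.25 (SE 0.52). Gm4366 had 78 and 140 counts in LacZ and 67 and 49 in ODD, at -1.14 (SE 0.29). In each of these the ODD libraries lay below LacZ, on few counts. Rpl10a-ps1 had 40 and 71 counts in LacZ and 22 and 26 in ODD, and Gm28439 had 26 and 34 in LacZ and 12 and 0 in ODD. The LacZ libraries stood above Input for the class: the median log2 fold change of the 378 processed pseudogenes over Input was 1.21 in LacZ and 0.66 in ODD. With EVEN probes their median over the same LacZ libraries was -0.38.

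Some genes were lower in ODD through 1 control library. The 67 genes at least 2-fold lower in replicate 1 took 1.29% of the counts in LacZ replicate 1 and 0.402% in ODD replicate 1, the libraries that chose them. In replicate 2, which did not choose them, they took 0.42% in ODD and 0.419% in LacZ. Acsf2, named after its values were seen, had 6288 and 288 counts in LacZ and 432 and 258 in ODD. Gm5540, called lower in the blocked fit, had 228 and 19 counts in LacZ and 23 and 5 in ODD, with ratios of 0.0629 and 0.291. For both genes LacZ replicate 1 stood apart from the other libraries, while Gm5540 was lower in ODD in replicate 2 as well, on few counts.

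TEC loci, which the annotation lists as awaiting experimental proof, had a median log2 fold change of -0.09 over 1355 genes. At an unadjusted p under 0.05 by edgeR, 0 were higher (0%, against 0.569% of all genes) and 5 lower (0.369%, against 0.46%). Both ODD libraries lay below both LacZ libraries for 202 loci (14.9%, against 7.46%) and above for 86 (6.35%, against 8.25%). The median of TEC loci over Input was 2.72 in ODD and 2.80 in LacZ, close to each other. The 13455 protein-coding genes had a median of 0.01, with 85 higher (0.632%, against 0.569% of all genes) and 24 lower (0.178%, against 0.46%). Long intergenic noncoding RNAs had a median of -0.04 over 368 genes, with Lhx1os the only one at least 2-fold higher in both replicates.

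**Figure D4:**
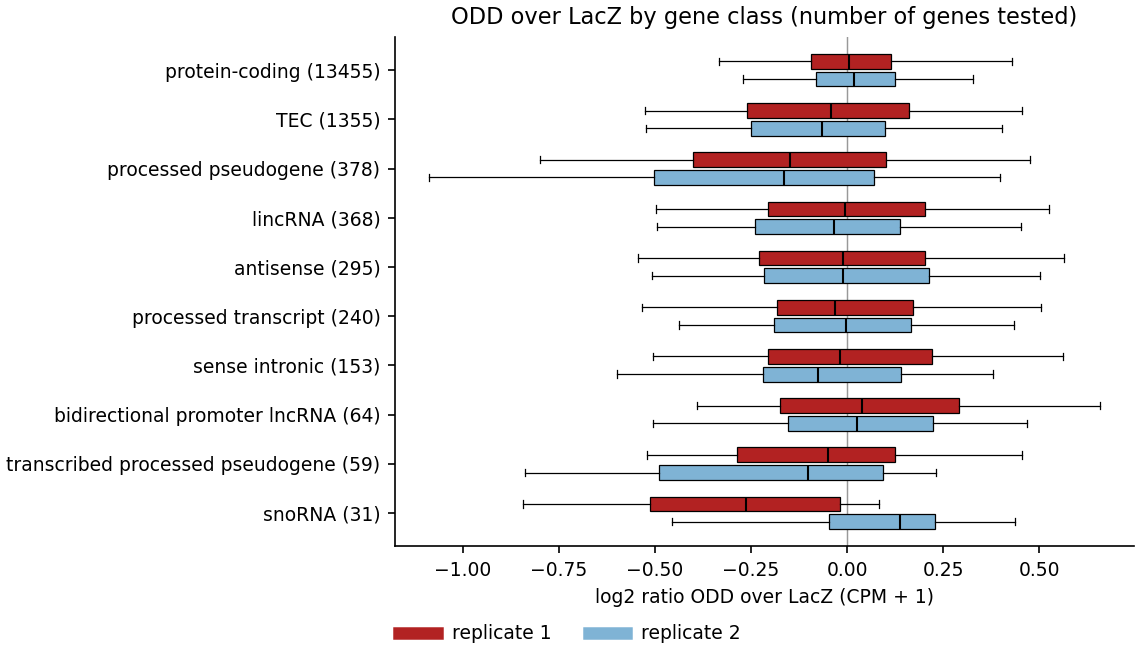
Log2 ratio of ODD to LacZ (CPM + 1) by gene class in replicate 1 (red) and replicate 2 (blue). Boxes span the quartiles with a line at the median, and whiskers reach the 5th and 95th percentiles. Processed pseudogenes lie below 0 in both replicates, with medians of -0.15 and -0.17, while small nucleolar RNAs are at -0.26 in replicate 1 and 0.14 in replicate 2.

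Gene lists for the cell type and for common pull-down partners were examined last. No member of the 19 lists passed the adjusted threshold in edgeR's filtered fit of all 8 libraries. Without the low-count filter edgeR called 3 members higher, Erp29 (adjusted p = 1.96e-10), Hnrnpa1 (adjusted p = 0.00103) and Ndufb8 (adjusted p = 0.00308). Motor neuron genes had a median log2 fold change of -0.01 over 22 tested, beside 0.01 over all genes, with 0 at an unadjusted p under 0.05. Nefm, a neurofilament subunit, was the highest of them, with 5037 and 9405 counts in LacZ and 19737 and 9153 in ODD, and a log2 fold change of 0.75 (SE 0.57). The LIM-homeodomain factors and their cofactors, 19 tested, had a median of -0.03 and none with a counting interval off 1 in both replicates. Long nuclear noncoding RNAs, 15 tested, had a median of -0.06. Among them Snhg1 was above in both replicates by the counting interval, at ratios of 1.57 and 1.14. Meg3 and Kcnq1ot1, both abundant, were below by small differences, at log2 ratios of -0.10 and -0.06 for Meg3 and -0.10 and -0.12 for Kcnq1ot1.

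Among 18 folding factors of the endoplasmic reticulum, 5 (27.8%) had counting intervals above 1 in both replicates, against 1.55% of all genes. They were Erp29, Canx, P4hb, Creld2 and Hyou1, and the list's median was 0.10. Erp29 alone had an unadjusted p under 0.05. Pdia4 was the lowest of the list, with 1801 and 875 counts in LacZ and 1223 and 864 in ODD. Counting intervals can pass on small differences in abundant genes, and Hyou1 passed at log2 ratios of 0.13 and 0.13. The share above was also larger than over all genes for many other lists, on few genes each. It was 20% for motor neuron disease RNA-binding proteins, 9.09% for motor neuron genes, 8.33% for pan-neuronal genes and 7.69% for SR splicing factors. Long nuclear noncoding RNAs had 6.67%, progenitor and glia genes 5.88%, nuclear-encoded oxidative phosphorylation 5.56% and Hox genes 4.76%. Nefl, a motor neuron list member, passed at log2 ratios of 0.06 and 0.07. The share was 0% for several lists, among them LIM-homeodomain factors and their cofactors, housekeeping genes and replication-dependent histones. Of 10 RNA-binding proteins linked to motor neuron disease, Hnrnpa1 was the highest at a log2 fold change of 1.37 (SE 0.54). It had 5840 and 7436 counts in LacZ and 35578 and 7871 in ODD, so the difference lay almost wholly in replicate 1.

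Mitochondrially encoded genes, 11 tested of 37, had a median log2 fold change of -0.38. None had an unadjusted p under 0.05 by edgeR. Counting intervals lay below 1 in both replicates for 5 (45.5%, against 0.878% of all genes), namely mt-Nd1, mt-Nd2, mt-Nd4, mt-Nd5 and mt-Cytb. For 0 of the 11 (0%, against 7.46% of all genes) did both ODD libraries lie below both LacZ libraries. Nuclear-encoded genes of oxidative phosphorylation had a median of -0.00 over 72 genes. Their highest member, Ndufb8 of complex I, had 861 and 930 counts in LacZ and 4832 and 1199 in ODD, at 1.39 (SE 0.61). Gm20538 overlaps its exons on the same strand. Cytosolic ribosomal proteins had a median of -0.06 over 83 genes, with 0 at an unadjusted p under 0.05. By counting intervals 2 were above (2.41%, against 1.55% of all genes) and 12 below (14.5%, against 0.878%). These are abundant RNAs, for which small differences pass: Rps16, among the 12, had log2 ratios of -0.08 and -0.13. For the remaining lists the medians lay between -0.25 and 0.08.

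**Figure D5:**
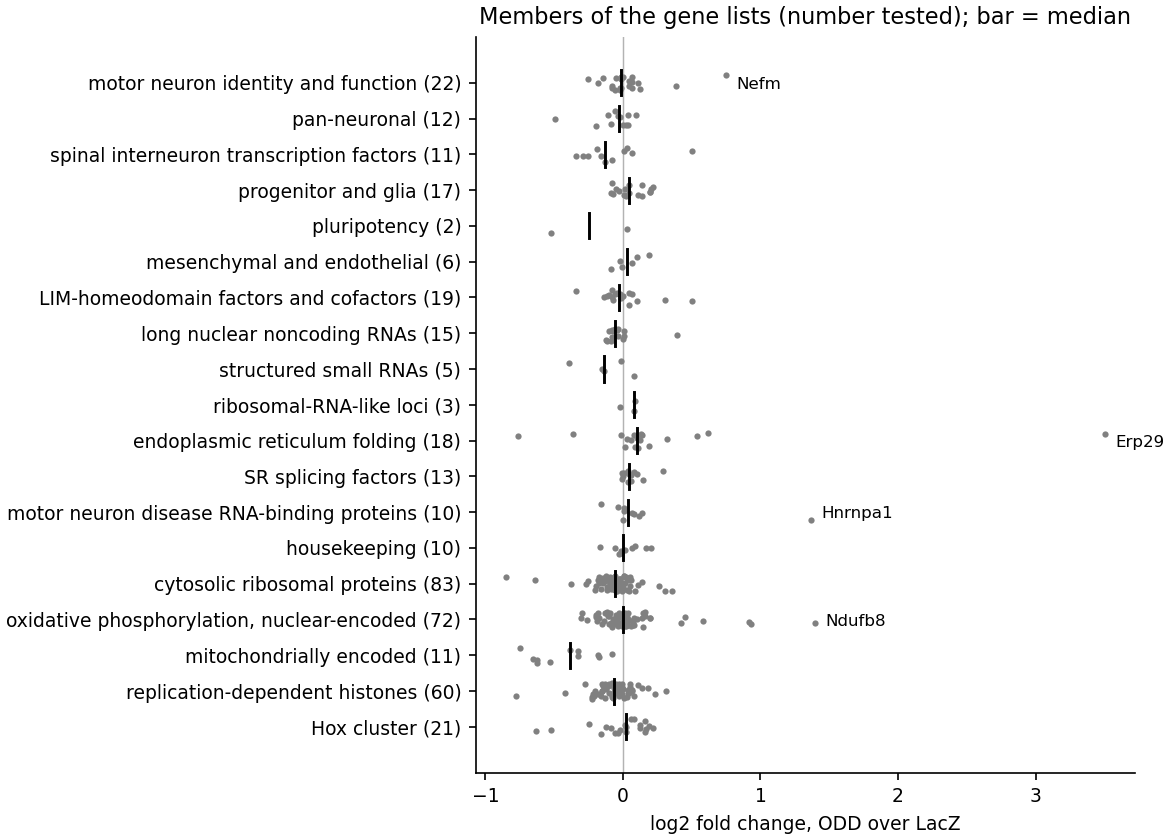
Log2 fold change of ODD over LacZ for each tested member of the 19 gene lists, 1 grey point per gene and a black bar at the list's median, with the number tested in brackets. Most medians sit near 0, mitochondrially encoded genes are at -0.38, and Erp29 at 3.50, Ndufb8 at 1.39 and Hnrnpa1 at 1.37 stand apart from their lists.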

How the data were processed

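The authors deposited whole-number read counts per Ensembl gene, a gene length (another unit, bases) and FPKM values. The submitters' processing notes name cutadapt 3.2, Bowtie2 2.4.2, Picard, HTSeq 0.13.5 and GRCm38. Libraries were stranded and depleted of ribosomal RNA, per the labels' protocols. Gene models came from GENCODE M21, which matched 55230 of 55471 identifiers, with equal length for 99.1% of them. Unmatched identifiers held at most 0.0046% of a library's counts.

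Counts from all 8 libraries, grouped by probe set, went into edgeR 4.0.16 (R 4.3.3; TMM, default filter by group, quasi-likelihood test, group as the only term, two-sided, Benjamini-Hochberg over 16524 genes, threshold 0.05). DESeq2 1.42.0 and limma 3.58.1 on log2 values of the deposited FPKM plus 1 were alternatives. Ratios within a replicate used TMM-scaled CPM, with 1 added for log2 ratios and exact conditional (Clopper-Pearson) 95% intervals from the counts (scipy 1.17.1). TMM factors lay between 0.965 and 1.03. An exact permutation test of 2 against 2 libraries cannot go below p = 0.333, so none was used. The edgeR script was tested on simulated data with 200 changed genes and no replicate effect. At a log2 change of 2 it recovered 86% of them, with 16 false among 188 calls. At a log2 change of 3 it recovered 95.5%, with 12 false among 203 calls. Other alternatives were the replicate block, the block with GC trends removed, RLE or total-size scaling, other filters and leaving out each library. Replicates of a group were not duplicates (chi-square per degree of freedom 48.3 in ODD and 31.5 in LacZ).

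Replicate numbers stand as batches in the labels, and deviations of same-numbered ODD and LacZ libraries from their group means correlated across genes at r = 0.719, so the numbers pair the libraries. Genes were named by rule: Lhx1os and Lhx1, the 12 with the largest smaller ratio of the replicates, the 6 most negative, the 6 and 3 with the smallest p in each direction, the extremes of each list and the longest shared stretches. Others are marked as named after their values were seen, as were members behind a count of 5 or fewer. The comparison and the lists were chosen with earlier results of these data known.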

Additional observations from a re-analysis of the deposited data

How the results depend on the processing

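The log2 fold change of Lhx1os lay between 3.97 and 6.31 over 20 fits, and 3 of these passed the adjusted threshold: DESeq2 (5.57), no filter on low counts (5.58, adjusted p 2.47e-18) and the replicate block on ODD and LacZ alone (5.23, adjusted p 0.0218). The replicate block on all 8 libraries gave 5.16 (adjusted p = 1 by edgeR), called 0 genes in either direction and changed no call. Leaving out 1 library gave 3.97 to 6.31 for Lhx1os, 0 to 7 genes higher and 0 to 0 lower. Genes called higher numbered 1 in DESeq2, 60 with no filter and 3 with the block on ODD and LacZ alone, and those lower 15 with no filter and 1 with that block. At 1.5-fold, 20 genes were higher and 29 lower in both replicates. Those at least 2-fold lower in both were 9 with a pseudocount of 0.5 CPM, 0 with 5 CPM and 2 with a filter of 50 counts. A 99% interval left 143 genes above and 57 below in both replicates, and total library size gave 173 above and 315 below. ODD libraries apart from LacZ were 2197 above and 2296 below with no filter, and 769 below with the filter of 50 counts. Rules that need both replicates could not leave one out. Leaving out 1 library turned 6 named genes whose change exceeded its SE: Pdia4 (-1.36 to 0.26), Hist3h2bb-ps (-1.48 to 0.11) and Rpl22 (-1.48 to 0.28) turned without LacZ replicate 1, Zfp712 (-0.39 to 4.03) and Tubb4a (-0.24 to 3.48) without ODD replicate 1, and Gm6210 (-0.31 to 2.02) without ODD replicate 2. Where not shown by construction, the cause was not tested. Depth limits genes of a few counts, such as Lax1.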

Other observations

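Some genes high in ODD replicate 1 were also high with the EVEN probes over the same LacZ libraries, and others were not. The 15 genes at least 8-fold higher in ODD replicate 1 include Lhx1os. With EVEN, 7 of them were at least 2-fold higher in replicate 1 and 6 in replicate 2. Cplx2 had EVEN log2 ratios of 3.48 and 1.53, Rab3c 2.80 and 1.05, and Rad21 2.87 and 1.03. Shld2 and H2-Ke6 were among those not high with EVEN. Shld2 had 139 and 145 counts in EVEN beside 1236 and 142 in ODD, a log2 difference of ODD over EVEN of 2.19 (SE 0.77). For H2-Ke6 the counts were 91 and 73 beside 1093 and 54, with a log2 difference of 2.71 (SE 1.04). Pdia4 went the other way, at 5400 and 1643 counts in EVEN beside 1223 and 864 in ODD, a log2 difference of -1.74 (SE 0.65). By edgeR, none of the 3 differences was past the threshold (Benjamini-Hochberg adjusted p = 1 for each).

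The genes at least 2-fold higher in ODD replicate 2 but not in replicate 1 numbered 3. Akr1c13, an aldo-keto reductase, had 92 and 68 counts in LacZ and 170 and 150 in ODD. Gm6210, a processed pseudogene, had 8 and 7 counts in LacZ and 8 and 34 in ODD. The third, AC166779.2, rested on at most 16 counts in a library.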
